A study of Mus musculus with 2 samples.

Results

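The genes described here are the core of the Nodal and Lefty pathway, followed in newly made and in older RNA of mouse embryonic stem cells (mESC). They were chosen by symbol, as the protein-coding transcripts of Nodal, Lefty1, Lefty2, Tdgf1, Acvr1b, Acvr2b, Smad2, Smad3, Smad4 and Skil in the GENCODE M21 annotation. This gave 27 transcripts of 10 genes, out of 49490 protein-coding transcripts of 21587 genes with an exon value. The cells were wild-type DTCM23/49 XY mESC, a feeder-depleted line grown on gelatin in serum with leukemia inhibitory factor, and all of them received 200 µM of 4-thiouridine (4sU) for 10 min, so that transcripts made in this time carry the analogue in place of some uridines. RNA that carried 4sU was tagged with biotin and pulled down on streptavidin beads, and this labeled RNA and the unlabeled RNA left in the supernatant were sequenced as 1 library each, both of biological replicate 1. The second library is described as preexisting RNA in its label but titled as total RNA, and it is used as unlabeled RNA here.

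There are 2 libraries and no replicates, so no difference below has a replicate check, an error or a test. The deposited values are called TPM, a level per transcript length that can be compared between genes, but a column adds up to 10 times what TPM values would, and they are given below as deposited. Read depth is unknown, so no counting error can be given. In bulk RNA, fewer cells that express a gene and less RNA of it per cell cannot be told apart. Introns made up 15.4% of the summed exon and intron values in the labeled and 6.26% in the unlabeled library. These values are per length, so the shares are not shares of reads. The pluripotency markers were all measured, among them Pou5f1 (783 labeled, 1198 unlabeled) and Nanog (1099 and 2416), while the mesendoderm regulators Gsc and Foxa2 and the endoderm regulators Gata6 and Sox17 were listed at 0 in both libraries. The other members of these lists were low, with Eomes at 4.65 and 2.26, Mixl1 at 0.80 and 3.42, T at 0.19 and 0.29, Gata4 at 4.87 and 5.88 and Pdgfra at 0.63 and 1.94, except Dab2 (15.7 and 108) and Sparc. Sparc, which primitive endoderm also makes (977 and 2310), and Dnmt3b and Otx2, which are also high in primed cells (2639 and 7467 for Dnmt3b, 613 and 724 for Otx2), were high as well, while the other primed genes, Fgf5 (5.31 and 2.63) and Pou3f1 (8.79 and 16.4), were low, and the part of such cells in the values below was not tested.

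Nodal is a secreted ligand of the TGF-beta superfamily. It binds a complex of activin receptors on the cell surface with the coreceptor encoded by Tdgf1 (Cripto). The receptors phosphorylate SMAD2 and SMAD3, which join SMAD4, enter the nucleus and act there with partners such as FOXH1. Lefty1 and Lefty2 encode secreted antagonists that block Nodal and its coreceptor, and both are direct targets of the signal, as are Nodal itself and Skil. Skil encodes SnoN, a nuclear repressor of SMAD complexes. In the embryo the pathway patterns the axes and the germ layers, and mESC carry an active form of it.

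The Lefty genes are near copies of each other, which bears on how reads can be shared between them. Lefty2 (chr1:180893108-180899103) and Lefty1 (chr1:180935022-180938400) lie on the same strand of chromosome 1 in GRCm38, 35918 bases apart, and each leading transcript has 4 exons. Their coding sequences are 1104 bases long each and align without a gap, with 1014 identical bases (91.8%), and the predicted proteins are identical at 89.9% of positions. The longest run of identical bases is 140, so reads inside such runs match either gene. The least alike stretch of 90 bases lies in exon 1 (bases 35 to 124), at chr1:180935144-180935233 in Lefty1 and chr1:180893218-180893307 in Lefty2. Of its bases 63 (70%) are identical, and capitals mark those that differ.
Lefty1, exon 1: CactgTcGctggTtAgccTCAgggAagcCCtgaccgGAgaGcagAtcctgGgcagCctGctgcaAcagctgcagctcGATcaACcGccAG
Lefty2, exon 1: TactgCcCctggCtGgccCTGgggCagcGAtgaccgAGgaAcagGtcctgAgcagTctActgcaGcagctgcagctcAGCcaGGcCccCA

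The promoter of Tdgf1, the gene with the highest level of the set, is shown because it held matches of the motifs searched for. A table of RefSeq promoters on GRCm38.p6, from 250 bases before to 50 bases after each start, matched 5 of the 10 genes (Nodal, Tdgf1, Acvr1b, Acvr2b and Smad3). It was searched on both strands for CAGAC, letters that SMAD proteins bind, for AATNNACA and for TATAAA. AATNNACA, with any base at N, is a looser form of the letters that FOXH1 binds, so a match need not be a FOXH1 site. The 250 bases before the Tdgf1 start, at chr9:110946159-110946408 on the minus strand and with 42% G or C, are written on the strand of the gene with the matches in capitals.
Tdgf1, before the start: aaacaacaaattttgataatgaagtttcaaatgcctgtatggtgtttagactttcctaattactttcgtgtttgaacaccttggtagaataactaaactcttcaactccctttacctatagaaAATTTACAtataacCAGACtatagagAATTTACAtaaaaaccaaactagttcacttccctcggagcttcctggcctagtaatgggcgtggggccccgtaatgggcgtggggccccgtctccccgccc
AATNNACA begins 127 and 101 bases before the start, and CAGAC stands between them at 113 bases, with no overlap. Both AATNNACA matches read AATTTACA, and whether FOXH1 binds these letters was not tested. At least 2 matches of AATNNACA were present in 1.43% of the 32851 promoters of the table, and in 0.612% together with CAGAC. These 2 classes match the pattern that Tdgf1 is shown for, so their shares are a description and no test of it. All promoters were counted, whatever their share of G or C. A single AATNNACA was far more common (12.2%), and CAGAC was found in 49.6% and TATAAA in 13.6%. Acvr2b held 1 CAGAC, at 233 bases before its start, and Nodal, Acvr1b and Smad3 held none of the 3 motifs in this window.

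The Lefty transcripts also share a short target sequence after their stop codons. AGCACTT is the complement of the seed AAGUGCU, bases 2 to 8 of the miR-290 and miR-302 families, which are abundant in pluripotent cells and known to act on Lefty genes. The seed is in capitals in 4 mature RefSeq sequences that share it, and the seed match is in capitals in the 2 sites.
mmu-miR-291a-3p: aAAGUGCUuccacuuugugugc
mmu-miR-294-3p: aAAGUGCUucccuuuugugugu
mmu-miR-302b-3p: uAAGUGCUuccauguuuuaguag
mmu-miR-302d-3p: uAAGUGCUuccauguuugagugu
Lefty1 site: ctgcactgtatgcgaAGCACTTa
Lefty2 site: ccatcacccagtttaAGCACTTa
Both sites lie in exon 4 on the plus strand, at chr1:180938198-180938220 for Lefty1 and chr1:180897902-180897924 for Lefty2. Smad2-201 held 1 match after its stop codon and Smad2-205 held 3. No match was found after the annotated stop codon in the coding transcripts of Nodal, Tdgf1, Acvr1b, Acvr2b, Smad3, Smad4 and Skil, of which several end at the stop codon in the annotation. Over the leading coding transcripts of 14017 genes the share with a match was 11.7%. The miRNAs were not measured here, and a match is a description of the letters only.

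The exon value of each gene was summed over its coding transcripts in each library. The genes spanned a wide range of levels. Tdgf1 was far above the others, at percentile 99.6 of the mean level of 14127 protein-coding genes, followed by Skil (94.8) and Smad2 (92.2). Smad4 (66.0) and Nodal (63.2) were above the median gene, Lefty2 (54.4), Lefty1 (51.9) and Smad3 (49.9) were close to it, and the receptors Acvr1b (41.4) and Acvr2b (36.4) had the lowest levels. With 1 library a pool, it cannot be said which neighbours in this order differ. The unlabeled value was the higher one in 9 of the 10 genes, and in Lefty1 the labeled value was. The unlabeled value was also the higher one in the median gene, with a labeled to unlabeled ratio of 0.837. The 2 libraries carry no common scale, so each labeled to unlabeled ratio was divided by the median ratio of all genes (0.837, or -0.26 on the log2 scale). Ratios after this step are called centred, and a gene is called higher or lower in labeled RNA at 2-fold.

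**Figure D1:**
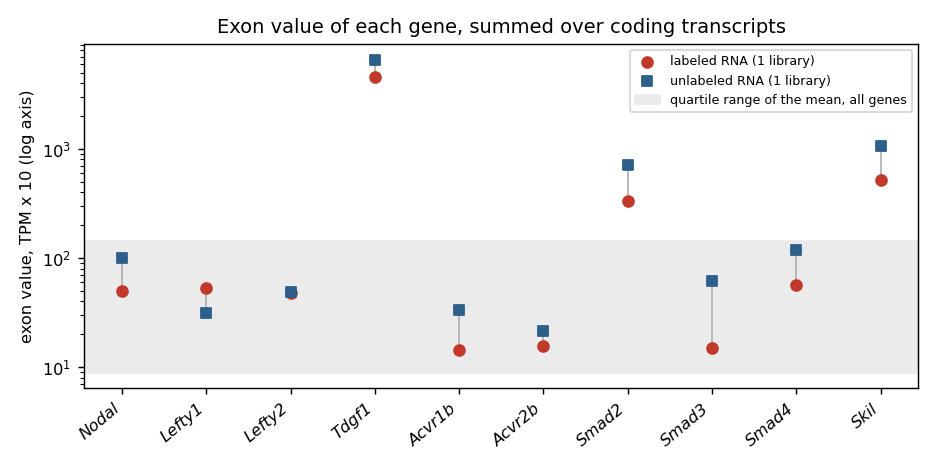
Exon value (deposited TPM, which is 10 times the usual scale, log axis) of each gene summed over its coding transcripts, in the labeled library (red circles) and the unlabeled library (blue squares), 1 library each, with the quartile range of the mean of all genes in grey (8.88 to 143). Tdgf1 lies far above the other genes, and only for Lefty1 is the labeled value above the unlabeled one.

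Nodal (ENSMUSG00000037171, Nodal-201 at chr10:61417972-61425338, plus strand, 3 exons) has a single coding transcript with 354 codons. Its exon value was 49.3 in the labeled and 101 in the unlabeled library. The centred log2 ratio was -0.77, which is 1.71-fold below the median gene and does not reach 2-fold. The intron value went the other way, with 16.4 in the labeled and 2 in the unlabeled library, 8.21-fold higher in labeled RNA as deposited.

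The antagonists were expressed at levels close to that of their ligand. Lefty1 (ENSMUSG00000038793) had an exon value of 53.0 in the labeled and 31.1 in the unlabeled library, and it was the gene with the highest centred ratio of the 10, at 1.03 on the log2 scale or 2.04-fold. This is just above 2-fold, and under 5 of 9 other ways of processing, each given in the closing section, it was below it. Lefty2 (ENSMUSG00000066652) had nearly the same exon value in both libraries, 47.4 labeled and 48.5 unlabeled, and a centred log2 ratio of 0.23. Lefty2 had a lower intron value than Lefty1 in both libraries, 10.0 against 26.0 in labeled RNA and 0.78 against 3.83 in unlabeled RNA. Since long stretches of the transcripts are identical, how the authors' counting split shared reads between the Lefty genes is uncertain.

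Tdgf1 (ENSMUSG00000032494), the coreceptor gene, had an exon value of 4574 in the labeled and 6580.35 in the unlabeled library, summed over 3 coding transcripts. Its centred log2 ratio was -0.27, and it ranged from -0.75 to 0.20 over 9 other ways of processing, so its side of the median gene is not settled. These values are uncertain for a further reason. Tdgf1-ps1, a processed pseudogene on chromosome 16, is identical to 98.8% over 512 bases of Tdgf1-201, and it was given an exon value of 4775 in the labeled and 8459 in the unlabeled library, above that of the gene itself. Tdgf1-ps2 on chromosome 17 (90.4% identical over 509 bases) was given 1572 and 2452. The part of shared reads in these values was not tested.

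The receptor genes had low levels. Acvr1b (ENSMUSG00000000532, Acvr1b-201 at chr15:101174067-101213684, plus strand), which encodes the type I receptor ALK4, had an exon value of 14.2 in the labeled and 33.6 in the unlabeled library. Its centred log2 ratio of -0.99 lies just inside the 2-fold limit. Acvr2b (ENSMUSG00000061393, Acvr2b-202 at chr9:119402118-119433515, plus strand), a type II receptor gene, had 15.7 labeled and 21.2 unlabeled and a centred log2 ratio of -0.18. Both receptor genes thus had less exon RNA in the labeled library as deposited.

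The SMAD genes all had centred ratios below the median gene. Smad3 (ENSMUSG00000032402, Smad3-202 at chr9:63666148-63751077, minus strand) had an exon value of 14.9 in the labeled and 61.0 in the unlabeled library, which is 3.43-fold below the median gene (-1.78 on the log2 scale) and the lowest ratio of the 10 genes. Smad2 (ENSMUSG00000024563), whose product shares the role of receptor-activated SMAD with that of Smad3, had 333 labeled and 715 unlabeled and a centred log2 ratio of -0.85. Smad4 (ENSMUSG00000024515), the common partner, had 56.5 labeled and 117 unlabeled and a centred log2 ratio of -0.80. The low ratio of Smad3 belongs to its coding transcripts. With all transcripts of the gene summed, whatever their biotype, its centred log2 ratio was -0.86, which does not reach 2-fold, because the noncoding Smad3-203 had an exon value of 16.9 in the labeled and 3.6 in the unlabeled library.

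Skil (ENSMUSG00000027660, Skil-204 at chr3:31095058-31122573, plus strand), the repressor and target gene, had an exon value of 519 in the labeled and 1059.5 in the unlabeled library. Its centred log2 ratio of -0.77 is the same as that of Nodal to 2 decimals, at a far higher level. Genes of high level had lower ratios in general. The median centred log2 ratio fell from 0.77 in the lowest to -0.47 in the highest decile of the mean exon value, and relative to the genes of its own decile Skil had -0.30, Smad2 -0.37 and Tdgf1 0.20, while Smad3 had -1.91 and Lefty1 1.06.

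Of the 10 genes, 1 (Lefty1) was higher in labeled RNA, where 21.9% of all 14127 genes were, and 1 (Smad3) was lower, where 14.8% of all genes were. The counts are too small to be read against these shares. The median centred log2 ratio over the 10 genes was -0.77, with 8 genes below the median gene and 2 above it, Lefty1 and Lefty2. Without the centring, the ratio as deposited was at or below 0.5 in 6 of the 10 genes, for which the share over all genes was 22.7%.

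**Figure D2:**
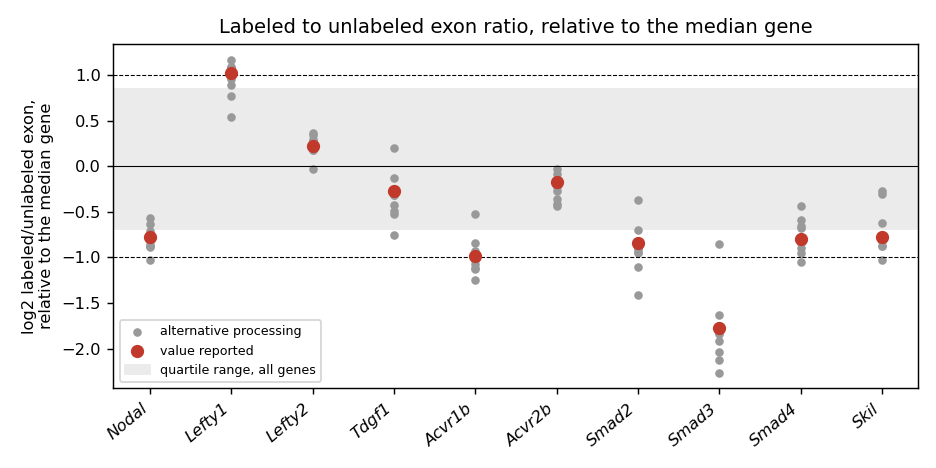
Log2 of the labeled to unlabeled exon ratio relative to the median gene, for each gene, as reported (red) and under 9 other ways of processing (grey points), with the quartile range of all genes in grey and the 2-fold limits dashed. Lefty1 stays above the median gene and Smad3 below it under each of them, and only Tdgf1 and Lefty2 have points on both sides of 0.

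The intron to exon ratio of a transcript, taken within each library, needs no scale between the libraries. Introns are present before splicing, so this ratio describes how much of the RNA of a transcript is unprocessed. For each gene the leading transcript was used, the coding transcript with an intron value and the highest mean exon value. For Smad2, Smad3 and Tdgf1 this is a short form in the annotation. The ratio was higher in the labeled library in all 10 leading transcripts. Over 12652 genes the labeled ratio divided by the unlabeled one had a lower quartile of 2.39. The median intron to exon ratio of the 10 was 0.543 in labeled and 0.0472 in unlabeled RNA, against 0.473 and 0.0931 over 12652 genes. For Nodal the ratio was 0.333 in labeled and 0.0199 in unlabeled RNA, and for Skil 0.385 and 0.0217. The labeled ratio was thus 16.8 times the unlabeled one in Nodal, 17.7 times in Skil, 16.8 times in Smad3, 12.99 times in Acvr1b and 11.0 times in Smad2, against a median of 4.93 for all genes. It was 13.1 times in Lefty2 and 6.93 times in Smad4, and below that median in Lefty1 (3.98), Acvr2b (2.45) and Tdgf1 (1.58).

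The Lefty genes differed in this measure. Lefty1 had 0.490 in labeled and 0.123 in unlabeled RNA, and Lefty2 had 0.212 and 0.0161. The labeled ratio was 3.98-fold above the unlabeled one in Lefty1 and 13.1-fold above it in Lefty2. The unlabeled intron value of Lefty2 behind this, 0.78, is low, and its counting error is unknown.

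The leading transcript of Tdgf1 had the lowest labeled ratio of the 10. This transcript, Tdgf1-204 (chr9:110942357-110946075, minus strand), had a ratio of 0.0483 in labeled RNA, at percentile 3.33 of all genes, and of 0.0307 in unlabeled RNA. The labeled ratio was 0.0500 in Tdgf1-201 and 0.407 in Tdgf1-203. The part of reads shared with the Tdgf1 pseudogenes in the exon values behind these ratios was not tested. The intron value of Tdgf1-204 was 99.9 in the labeled and 106 in the unlabeled library. As deposited, it was the only one of the 10 leading transcripts whose intron value was not higher in the labeled library. Its labeled to unlabeled intron ratio of 0.943 is above the 0.837 used for centring exon ratios, so this direction depends on the scale. The other coding transcripts of Tdgf1 had the higher intron value in the labeled library as deposited. It was 113 against 63.7 in Tdgf1-201 and 101 against 98.1 in Tdgf1-203. Over all genes the intron value as deposited was 4.02 times higher in the labeled library at the median, and over the 10 leading transcripts 5.10 times.

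Among the receptors and SMAD genes the labeled ratio was above the median of all genes (0.473). Only that of Acvr2b lay above the upper quartile (0.921). The labeled ratio was 0.711 for Acvr1b, 0.596 for Smad2-206, 0.675 for Smad3-202 and 0.844 for Smad4-202. Their unlabeled ratios were 0.0548, 0.0543, 0.0401 and 0.122 in the same order. Acvr2b-202 had a ratio of 1.30 in labeled and 0.531 in unlabeled RNA, which means that its introns had a higher value than its exons in new RNA. The annotation places the antisense gene Gm47320 on the other strand across Acvr2b and the pseudogene AC132418.2 on the other strand across Smad4. Neither was analysed here, whether the counting used strand is not given in the sources used here, and their part in the intron values was not tested.

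The labeled ratio moved with intron length in this set. Lefty1 (1759 intron bases), Tdgf1 (3217), Lefty2 (3523) and Nodal (5272) had the shortest introns in all, and their labeled ratios were between 0.0483 and 0.490. The other 6 genes had from 20938 (Skil) to 84501 (Smad3) intron bases and labeled ratios from 0.385 to 1.30. Across the 10 genes Pearson's r of the logarithms of intron length and labeled ratio was 0.644, and Spearman's rho was 0.661. Across 12652 genes they were 0.293 and 0.268. These are descriptions across genes measured in the same library, and genes are not independent replicates.

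**Figure D3:**
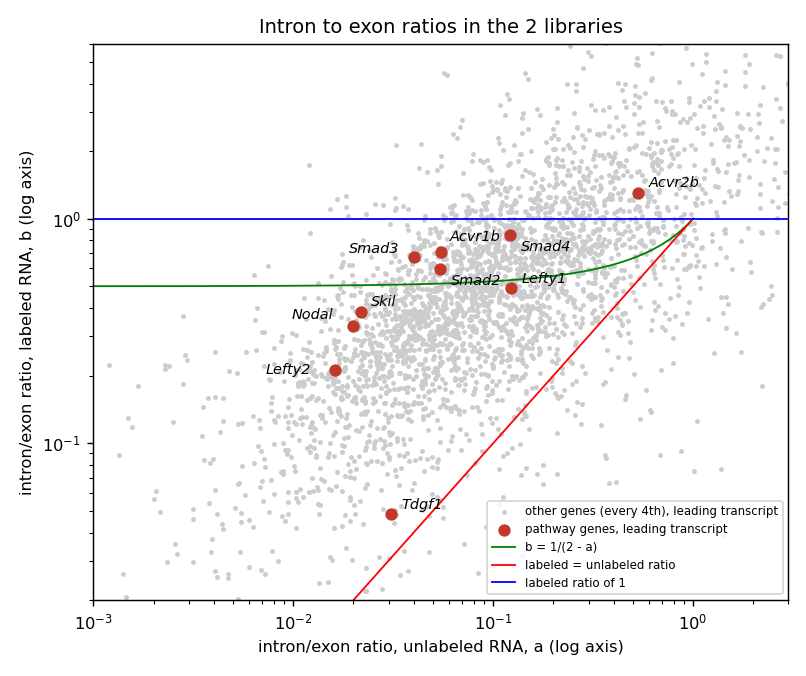
Intron to exon ratio in unlabeled RNA (x, log axis) against that in labeled RNA (y, log axis) for the leading transcript of each gene (red, named) and for every 4th other gene by level (grey), with the line b = 1/(2 - a) in green, equal ratios in red and a labeled ratio of 1 in blue. Acvr2b lies above the blue line, Acvr1b, Smad2, Smad3 and Smad4 lie between the blue and green lines, and the other 5 genes lie below the green line, with Tdgf1 nearest to the red line.

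The kinetic model behind these data lets premature RNA be made and processed to mature RNA, and mature RNA be degraded, at constant rates. It needs a labeled ratio below 1 and above the unlabeled one. Of the 26 coding transcripts with a mean exon value over 1 and all values above 0, 5 (19.2%) did not meet this, against 33.3% of 31386 transcripts of all genes. These were both transcripts of Acvr2b, Smad2-204, Smad3-201 and Smad4-201, and each had a labeled ratio of 1 or more. In all 27 transcripts the labeled ratio was above the unlabeled one, as it was in most leading transcripts of all genes. Transcripts of 1 gene overlap in most of their sequence and are not separate measurements.

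Of the 10 genes, 6 had more than 1 coding transcript, and how alike these were differed between genes. The coding transcripts of Tdgf1 were far apart, with labeled exon values from 248 to 2259.7 and labeled intron to exon ratios from 0.0483 to 0.407. Those of Smad3 had unlabeled exon values from 0.78 to 29.4, and labeled to unlabeled ratios from 0.224 to 1.27. Those of Smad2 were close to each other. The 7 coding transcripts of Smad2 had labeled exon values from 30.6 to 60.9 and unlabeled values from 61.4 to 132, and their labeled to unlabeled ratios ran only from 0.423 to 0.531. Smad2-202 lacks an exon of 90 bases (30 codons) that Smad2-205 has. The short form had 46.0 labeled and 109 unlabeled, and the long form 60.9 and 115, so both forms were given similar values. The 5 coding transcripts of Skil had labeled exon values from 78.8 to 123. Skil-204, the leading one, has a coding sequence 138 bases (46 codons) shorter than that of Skil-201, and they had 120 and 104 in labeled RNA and 273 and 236 in unlabeled RNA. The unlabeled intron to exon ratio of the Skil transcripts ran from 0.0217 to 0.683. Skil-205 differed from the others in its introns, with an intron value of 96.3 in the labeled and 134 in the unlabeled library, where the other 4 had 46.1 to 53.1 labeled and 5.93 to 8.97 unlabeled. Smad3-204, the 27th transcript, had exon values of 0.99 and 0.78 and did not pass the filter on the mean. Reads shared between isoforms were split among them by estimation, so the values of single isoforms are uncertain. The gene sums are relative values and not counts of molecules.

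**Figure D4:**
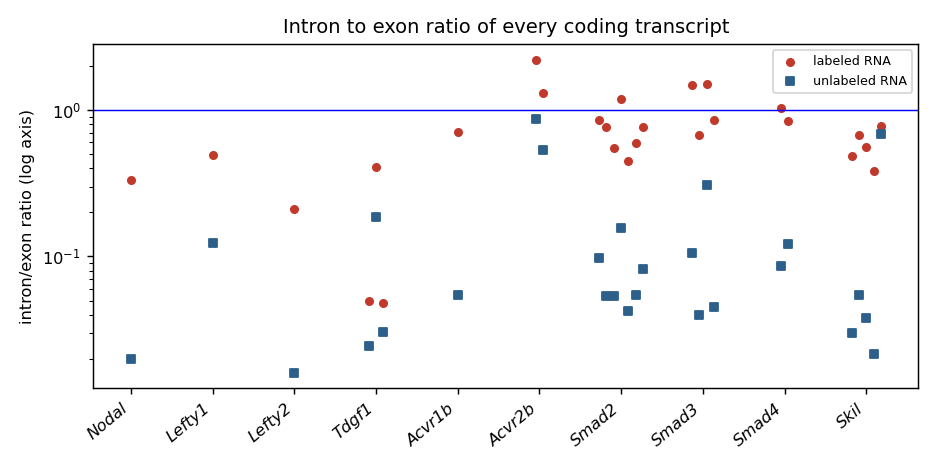
Intron to exon ratio (log axis) of each of the 27 coding transcripts, side by side within its gene, in labeled RNA (red circles) and unlabeled RNA (blue squares), with a ratio of 1 as a blue line. The labeled ratio is the higher one in every transcript, and it lies above 1 in 2 transcripts of Acvr2b, 2 of Smad3, 1 of Smad2 and 1 of Smad4.

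Degradation half-lives were computed from the 2 ratios with the equations of the model, for the compatible transcript of each gene with the highest mean exon value. This was the leading transcript in 9 of the 10 genes, and Acvr2b had none. They were 2.17 min for Lefty1, 6.79 min for Nodal, 8.76 min for Skil, 17.8 min for Lefty2, 31.8 min for Smad2, 78.1 min for Acvr1b, 82.6 min for Smad3, 99.0 min for Smad4 and 107 min for Tdgf1. The median was 31.8 min, against 19.8 min over 9344 genes. The transcripts used for Smad2, Smad3 and Tdgf1 are short forms, with 733, 429 and 270 coding bases. Longer forms have 1401 (Smad2-205), 1275 (Smad3-201) and 513 (Tdgf1-201). Smad3-201 and Smad4-201 were incompatible and have no half-life. The part of pseudogene reads in the value of Tdgf1 was not tested. The half-lives above are of 1 transcript a gene, and other coding transcripts of the same gene gave other values. They were 1.45 min for Skil-205, 22.9 min for Skil-201, 33.7 min for Skil-203 and 58.7 min for Skil-202. For Smad2 they were 9.91 min for Smad2-205, 21.8 min for Smad2-203, 76.0 min for Smad2-207, 121 min for Smad2-202 and 143 min for Smad2-201. Smad3-205 had 338 min, Tdgf1-203 had 10.5 min and Tdgf1-201 had 97.1 min.

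These half-lives carry different weight. Acvr1b, Smad2, Smad3 and Smad4 had exactly 1 solution of the equations. Skil had 2, and the other one was 2.07 min. Nodal, Lefty1, Lefty2 and Tdgf1 had none, and the minimum of Eq. 16 was taken, which searches only along the curve that ties both rates together. With the distance minimised over both variables (Eq. 15), the half-life was 4.30 min for Nodal, 2.16 min for Lefty1, 4.67 min for Lefty2 and 4.15 min for Tdgf1. The values also changed with the choices made. The half-life of Nodal ran from 4.30 to 119 min, that of Lefty1 from 2.16 to 27.7 min, that of Lefty2 from 4.67 to 88.0 min, that of Skil from 2.07 to 131 min and that of Tdgf1 from 4.15 to 107 min. Smad2 ran from 31.5 to 103 min, Acvr1b from 75.2 to 224 min, Smad4 from 98.0 to 336 min and Smad3 from 78.9 to 1488 min. The highest values of Nodal, Lefty1, Lefty2, Skil and Smad2 came from reading the second library as total RNA, and in that reading Tdgf1 had the shortest half-life of the 9 genes, 6.88 min, so the order of the genes is not settled.

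**Figure D5:**
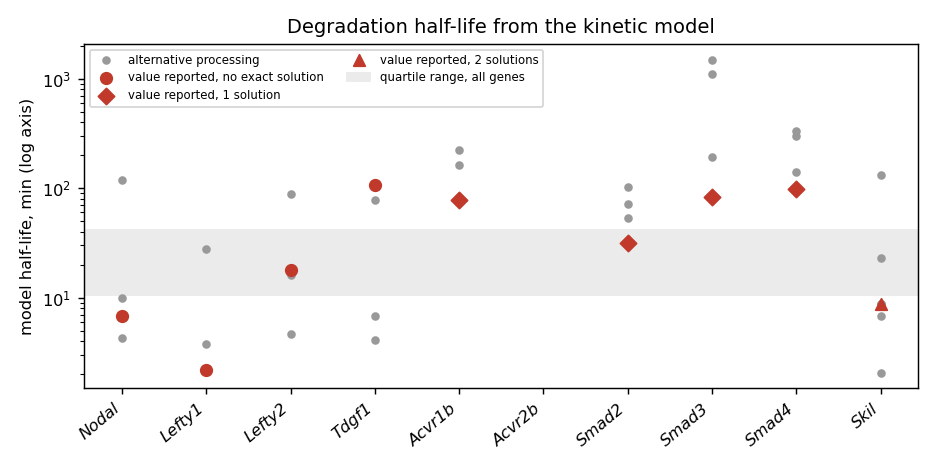
Degradation half-life from the model (min, log axis) for the leading transcript of each gene, as reported (red: circles without an exact solution, diamonds with 1, a triangle with 2) and under the other choices (grey points), with the quartile range of all genes in grey (10.6 to 41.7 min). Acvr2b has no value, and for 8 of the 9 other genes at least 1 choice gives a value over 1.5 times above the reported one.

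The other genes of the pathway were taken from a list of 46 symbols, of which 45 had a coding transcript with an exon value and 32 passed the filter on the mean. Of these 3 were higher and 10 were lower in labeled RNA (21.9% and 14.8% of all genes), and the median centred log2 ratio was -0.67. The antagonists were the only group of the list with a median above that of all genes, at 0.68 over 5 genes, of which 2 were higher (Bambi and Dand5, with labeled and unlabeled values of 8.83 and 1.1 and of 9.05 and 5.2) and none lower. These are genes of low level (median of the mean exon value 7.13), and in the decile of all genes with mean values from 6.29 to 12.2 the median was 0.44 and 32.5% were higher. The group of ligands and processing enzymes had 0 higher and 1 lower of 4 (median -0.10), the other receptors 0 and 1 of 2 (-0.84), the nuclear partners 1 and 4 of 9 (-0.86), the regulators of SMAD proteins 0 and 3 of 9 (-0.69) and the target genes 0 and 1 of 3 (-0.76). Acvr1c and the target genes Gsc, Foxa2, Sox17 and Fgf8 were listed at 0 in both libraries, and T had 0.19 and 0.29.

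Named by level, the corepressor gene Tgif1 (2086 labeled, 5471 unlabeled), the ubiquitin ligase gene Trim33 (697 and 2220) and the coactivator gene Ep300 (239 and 519) were the most abundant of the 21 list genes with a mean value over 10. The lowest centred ratios were those of the coactivator gene Crebbp (62.9 and 212, 2.82-fold below the median gene), of Rnf111, whose product marks repressors such as SnoN for degradation (138 and 450.46, 2.74-fold), and of the inhibitor gene Smad7 (26.2 and 84.7, 2.70-fold). The highest were those of the ligand gene Gdf3 (113 labeled and 98.9 unlabeled, 0.45 on the log2 scale), Drap1 (123 and 131, 0.17) and the type II receptor gene Acvr2a (20.97 and 29.1, -0.22). No gene of the list at this level was 2-fold higher in labeled RNA. Foxh1, the partner of the SMAD complex, had 5.28 and 5.81.

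The BMP and FGF pathways were counted in the same way, with no test of a difference. Of 12 BMP and Id genes that passed the filter, 2 were higher and 3 lower, with a median of -0.43 (21.9% and 14.8% of all genes were higher and lower), and of 16 FGF and ERK genes 1 was higher and 4 were lower, with a median of -0.89. The median of the Nodal and Lefty genes lies between these. The median labeled intron to exon ratio was 0.5 for the BMP genes (9 with a value) and 0.478 for the FGF genes (14), where it was 0.543 for the 10 Nodal and Lefty genes.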

How the data were processed

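Newly transcribed (labeled) and preexisting (unlabeled) RNA of wild-type mESC were each measured in 1 library. The authors removed ribosomal reads, mapped the rest with STAR 2.5.0 (version per the submitters' processing notes) on Ensembl v91 transcripts, and let RSEM estimate an exon and an intron value per transcript. The deposited values carry the name TPM, but a column adds up to 10 times a TPM total, so they were treated as a score per transcript and used as deposited by the authors. Read depth is unknown, and gives no interval. The table has 121429 exon and 91702 intron values, and 90.9% of its transcripts were found in GENCODE M21 (GRCm38), from which symbols, biotypes and coordinates were taken.

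Exon values were summed over the coding transcripts of a gene. Genes with a mean over 1 and both values above 0 were kept (14127), and log2 ratios were centred on their median. Intron to exon ratios were taken for transcripts with all values above 0. Rates followed Eqs. 10 to 17 of the study with a labeling time of 10 min, on 4000 grid points, and of 2 solutions the one nearest to the median rates was used. The solver was tested on simulated rates. With 1 library a group there was no test. The alternatives were no centring, a pseudocount of 1 (exons) or 0.1 (ratios), a minimum of 10 or none, leading transcripts, gene sums, all biotypes, centring by decile of uridine number, subtraction of leakage (0.0679 times the unlabeled value, the 1st percentile of the ratio), the library read as total RNA and other solutions. Centring by decile of level was chosen after seeing the data.

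The members, the lists (Nodal pathway, BMP, FGF and ERK, cell type markers) and the tests were chosen with earlier results of these data known. All 10 genes were named. Of the pathway list, the 3 highest and 3 lowest ratios and the 3 most abundant with a mean over 10 were named, and other genes of the lists were named after their values were seen. Near copies were sought with blastn 2.17.0 (at least 100 bases and 85% identity). One sequence stretch shared by the Lefty genes is not reported here. Promoters and miRNAs were RefSeq sequences on GRCm38.p6. The software was matplotlib 3.10.9, scipy 1.17.1, pandas 2.3.3, numpy 2.4.6 and Python 3.11.15.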

Additional observations from a re-analysis of the deposited data

How the results depend on the processing

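No paired analysis was possible because each pool has 1 library, and for the same reason no replicate could be left out. The median centred log2 ratio of the 10 genes stayed below 0 under all 9 alternatives, from -1.03 to -0.37, and the medians of the intron to exon ratios moved by less than 1.5-fold. The number of genes higher in labeled RNA went from 1 to 0 without centring, with a pseudocount of 1, with no filter on the mean, with all biotypes and with centring by uridine decile, since Lefty1 lies close to 2-fold. The number lower went from 1 to 6 without centring, and to 2 with no filter on the mean, with centring by uridine decile, with leakage subtracted and with centring by decile of the mean exon value. With all biotypes it stayed at 1, but the gene was Acvr1b in place of Smad3. Incompatible member transcripts were 5 of 26 as reported, 6 of 26 with leakage subtracted, 3 of 24 with a mean exon value over 10 and 1 of 10 with gene sums. The median half-life went from 31.8 min to 53.0 min with gene sums, 71.2 min with leakage subtracted, 78.1 min with exact solutions only, 119 min with the second library read as total RNA and 8.76 min with Eq. 15 over both variables. The cause of these changes was not tested. Among genes that were neither higher nor lower, Tdgf1 changed sign from -0.27 to 0.20 with centring by decile of the mean exon value, and Lefty2 from 0.23 to -0.03 without centring. Of the values for single genes, 176 moved by less than 1.5-fold and 22 by more. The only exon ratio among these 22 was that of Smad3 with all biotypes, and the others were half-lives. Some of the 176 could not move under a given choice, such as those of genes with 1 coding transcript under gene sums. Depth is unknown, and the low intron values, such as 0.78 for Lefty2 in unlabeled RNA, limit the ratios.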

Other observations

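The 10 genes also have 9 transcripts of other biotypes, whose exon values did not always follow those of the coding transcripts. Smad3-203, a processed transcript without an annotated coding sequence, was 4.70-fold higher in the labeled library as deposited, where the coding transcripts Smad3-201, Smad3-202 and Smad3-205 had ratios of 0.233, 0.224 and 0.241. Lefty2-202, a retained intron transcript, had an exon value of 8.56 in the labeled and 2.93 in the unlabeled library and a labeled intron value of 16.3, above its exon value. Lefty1-202, of the same biotype, had exon values of 12 and 8.22. Smad4-204, a processed transcript, lay on the other side, with 11.5 in the labeled and 68.4 in the unlabeled library. Tdgf1-202, annotated as a target of nonsense-mediated decay, had exon values of 1810 and 3450.3, the latter close to the 3453 of the coding Tdgf1-204. These transcripts were chosen after their values were seen, share sequence with coding transcripts of the same gene, and have no replicate.

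The marker lists of other cell types had low summed exon values except where single genes carried the sum. The mesendoderm list summed to 5.64 in the labeled and 5.97 in the unlabeled library over 5 genes, and the fibroblast list to 19.6 and 59.4 over 7 genes, with Col3a1 and Lum listed at 0. The primitive endoderm list summed to 999 and 2426 over 6 genes, nearly all of it Sparc. The neural list summed to 218 and 256 over 5 genes, with Tubb3 and Pax6 highest and Sox1 at 0.76 and 1.56. The primed list summed to 3266 and 8210.36 over 4 genes, mostly Dnmt3b and Otx2. The pluripotency list summed to 5995 and 6414 over 9 genes.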
